A study of Mus musculus with 47 samples.

Results

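Medullary thymic epithelial cells (mTECs) that lacked both Aire and EED were compared between their mature, MHC class II-high fraction (mTEChi) and their MHC class II-low fraction (mTEClo) in newborn mice. The comparison comprised the 6 libraries labelled AireEEDdKO, 3 mTEChi and 3 mTEClo, of 24 neonatal and 47 libraries in all, and it was read over 20196 genes with sufficient counts of 55471 listed. These mice combined a germline deficiency of Aire with a floxed Eed gene that was deleted by Foxn1-Cre, which acts in thymic epithelium. All were C57BL/6. Cells were sorted from digested thymus as viable CD45-negative, EpCAM-positive and Ly51-negative cells with high or low surface MHC class II. Replicates 1 and 3 of each fraction came from mice aged 4 days and replicate 2 from mice aged 6 days. Replicate 1 was a pool of males and females in mTEChi and female in mTEClo, and replicates 2 and 3 were male in both fractions. The comparison genotypes were neonatal Ctrl (5 mTEChi and 3 mTEClo libraries) and EEDcKO (3 mTEChi and 4 mTEClo libraries), which carried the Foxn1-Cre deletion of Eed with Aire present. These were C57BL/6 mice of both sexes, pooled in some libraries, aged from 1 to 6 days, with Ctrl mTEClo from mice of at most 3 days and Ctrl mTEChi from mice of up to 6 days. The neonatal fit also held 3 AireKO mTEChi libraries from mice aged 4 or 6 days. The adult libraries, used only to define a gene list, came from mTEClo and mTEChi of WT and AireKO mice aged 4 to 6 weeks. Neonatal mTEClo of AireKO mice were not analysed here, so a change cannot be assigned to one of the deficiencies.

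Medullary epithelium displays antigens of many tissues to developing T cells. As mTECs mature they gain MHC class II and costimulatory molecules, and many of them then express Aire, a transcriptional regulator through which genes of other tissues are switched on. Some mTECs instead take on the programme of a peripheral cell type, such as a tuft, ciliated or muscle cell, and are called mimetic cells. EED belongs to the core of PRC2, the Polycomb complex that methylates histone H3 at silenced genes, with Hox genes among its classical targets.

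The mTEChi libraries held 1915167, 1914240 and 3133603 counts and the mTEClo libraries 3214743, 4817418 and 4350343 counts, so genes of few counts were measured less precisely in mTEChi. Levels are given as CPM, read counts relative to the scaled library total, and lists of values run over replicates 1, 2 and 3. A gene was called higher or lower where edgeR's quasi-likelihood test gave a Benjamini-Hochberg adjusted p under 0.05 with a change of at least 2-fold, and log2 fold changes are mTEChi minus mTEClo with their SE. By its age, AireEEDdKO replicate 2 came from other mice than replicates 1 and 3, but nothing in the labels states whether libraries of a group came from separate litters. The p-values thus measure the spread between libraries within a group, estimated over all 24 neonatal libraries. That spread includes differences of age and may be partly technical. Same-numbered libraries deviated together and are shown as pairs, but the test did not pair them unless a paired fit is named.

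Both targeted genes were checked first. Aire was measured at 16.3, 10.8 and 3.45 CPM in mTEClo and at 22.2, 32.1 and 9.87 CPM in mTEChi. The Ctrl libraries lay between 322 and 330 CPM in mTEClo and between 459 and 800 CPM in mTEChi, above every AireEEDdKO library. Transcripts of Aire thus remained countable, and their change between fractions missed the test (1.04 ± 0.61, adjusted p = 0.18). It was called when GC content and replicate pairs entered the fit (1.62, adjusted p = 0.037). Eed was measured at 15.4, 14.9 and 14.9 CPM in mTEClo and at 17.0, 11.5 and 12.1 CPM in mTEChi, below the Ctrl libraries, which lay between 20.2 and 38.4 CPM over both fractions. Its log2 change of -0.17 ± 0.25 missed the test as well (adjusted p = 0.63). Counts per gene do not resolve which exons the remaining Eed and Aire reads came from. Aire also overlaps the gene Dnmt3l in the annotation.

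**Figure D1:**
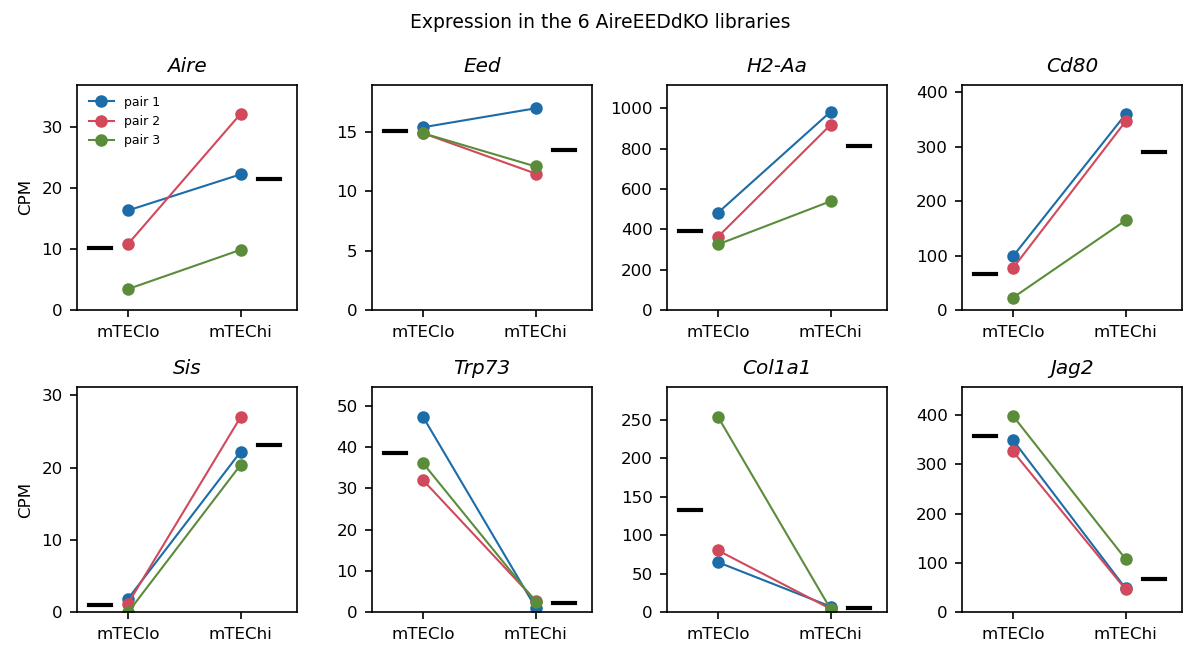
Levels in CPM (vertical axes, each from 0) of 8 genes in the 6 AireEEDdKO libraries, with a line for each same-numbered pair of mTEClo and mTEChi and a black bar for the group mean. Cd80 and Sis were higher in mTEChi in every pair and Trp73, Col1a1 and Jag2 lower in every pair, while Eed stayed between 11.5 and 17.0 CPM.

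A difference between the libraries of the 2 fractions has to be read beside every result. Among 16099 protein-coding genes split into 5 equal classes by transcript GC content, the median log2 change fell from 0.35 in the class of lowest GC (31.0 to 44.0%) to -0.51 in that of highest GC (55.6 to 74.2%). The corresponding medians ran between -0.02 and 0.06 in Ctrl and between -0.05 and 0.02 in EEDcKO. All 3 AireEEDdKO mTEClo libraries had raised levels of GC-rich against GC-poor genes, with gaps of 0.90, 0.72 and 0.75 log2 units between the highest and lowest GC class, relative to the mean of the neonatal libraries, against 0.13, -0.19 and -0.11 in mTEChi. The titles of those 3 mTEClo libraries and of mTEClo EEDcKO replicates 3 and 4 (gaps of 0.68 and 0.44) lack the bracketed library number that the other neonatal titles carry, so a preparation difference and the fraction cannot be told apart in AireEEDdKO. Gaps of like size also occurred in libraries with a bracketed number, at 0.75 and 0.53 in mTEChi EEDcKO replicates 2 and 3 and 0.50 in mTEClo EEDcKO replicate 2. Counts are therefore given also from a fit that removed the GC trend of each library and kept the replicate pairs, called the GC-corrected paired fit.

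**Figure D2:**
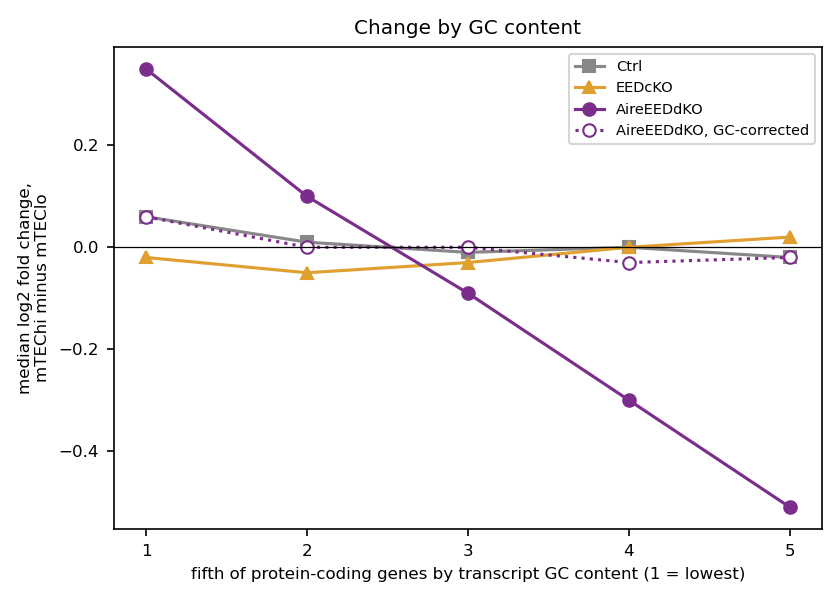
Median log2 fold change of mTEChi against mTEClo (vertical axis) over 5 equal classes of protein-coding genes by transcript GC content (horizontal axis), for Ctrl, EEDcKO and AireEEDdKO. The AireEEDdKO medians fall from 0.35 to -0.51, and after GC correction (open circles) they lie between -0.03 and 0.06.

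Without Aire and EED, 2103 genes were higher (10.4% of genes tested) and 2133 lower (10.6%) in mTEChi than in mTEClo, and 605 of the rises and 572 of the falls were at least 4-fold. The GC-corrected paired fit called 2220 genes higher (11.0%) and 1723 lower (8.53%), and it shared 1774 of the rises and 1489 of the falls. The Ctrl genotype had 2780 genes higher (13.8%) and 1398 lower (6.92%), and EEDcKO 2858 higher (14.2%) and 1549 lower (7.67%). Rises thus made up 49.6% of calls in AireEEDdKO, 66.5% in Ctrl and 64.9% in EEDcKO. In the GC-corrected paired fit these shares were 56.3%, 69.2% and 68.9%. Of the AireEEDdKO rises, 1103 were also called higher in Ctrl (52.4% of the AireEEDdKO rises and 39.7% of the Ctrl rises). Of its falls, 678 were also called lower in Ctrl (31.8% and 48.5% of each list).

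The largest rises by the rule for named genes included an intestinal enzyme, immune receptors and single genes of other tissues. Sis, the brush border enzyme sucrase-isomaltase (chr3:72888557-72967863, GRCm38, minus strand), was measured at 1.88, 1.22 and 0 CPM in mTEClo and at 22.2, 27.0 and 20.4 CPM in mTEChi, a log2 change of 4.51 ± 0.63 (adjusted p = 1.4e-05). Mrc1, the mannose receptor of macrophages, had 11.9, 7.95 and 2.99 CPM in mTEClo against 112, 58.0 and 64.6 CPM in mTEChi (3.39 ± 0.40, adjusted p = 2.8e-06). Il1rl1, a receptor of the interleukin-1 receptor family, was at 11.6, 5.91 and 0.230 CPM against 84.2, 79.8 and 14.6 CPM (3.36 ± 0.68), with replicate 3 the lowest in both fractions. Kynu, the tryptophan-degrading enzyme kynureninase, went from 20.7, 32.6 and 8.27 CPM to 172, 227 and 153 CPM (3.15 ± 0.37, adjusted p = 2e-06). Cdh9, a cadherin, rose by 3.03 ± 0.47 and Ly9, a receptor of the SLAM family, by 3.05 ± 0.52. The others were Tnmd (3.15), Wnt2 (3.17), Xkr9 (3.29) and 9130409I23Rik (3.48). By construction of the rule the fractions of these 10 genes did not overlap.

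The 10 largest falls included collagen and other matrix genes beside transcription factors. Col1a1, a chain of type I collagen (chr11:94936224-94953042, plus strand), was measured at 65.2, 80.5 and 254 CPM in mTEClo and at 7.60, 4.59 and 4.14 CPM in mTEChi, a log2 change of -4.67 ± 0.64 (adjusted p = 1.3e-05). Col3a1, the chain of type III collagen, had 89.6, 159 and 337 CPM against 7.60, 1.72 and 18.2 CPM (-4.25 ± 0.58). Mmp2, a secreted gelatinase, was at 80.5, 101 and 85.9 CPM against 1.17, 5.16 and 8.92 CPM (-3.97 ± 0.34, adjusted p = 2.9e-07). Gli1, the transcription factor and target of Hedgehog signalling, had 52.3, 71.1 and 45.3 CPM in mTEClo and 4.09, 0 and 3.50 CPM in mTEChi (-4.37 ± 0.65). Trp73, a p53-family factor needed for multiciliated cells (chr4:154056253-154140208, minus strand), dropped from 47.3, 32.0 and 36.1 CPM to 1.17, 2.87 and 2.55 CPM (-4.06 ± 0.29, adjusted p = 1.5e-08). Fndc1 (-4.41), Tril (-4.04), the matrix protein Fbln2 (-3.90), the tight junction protein Cldn11 (-3.67) and the chemokine Ccl11 (-3.66) completed the set. Of the 20 genes in both directions, each was also called in the same direction by the GC-corrected paired fit.

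Of 17 genes of MHC class II presentation, 7 rose and 2 fell, with a median log2 change of 0.95 against -0.03 over all genes tested. H2-Aa, the alpha chain of I-A the class II molecule of this strain, was measured at 483, 364 and 326 CPM in mTEClo and at 984, 919 and 540 CPM in mTEChi. All 3 mTEChi libraries lay above all mTEClo libraries, as they did for 4630 of the 20196 genes tested. The log2 change of 1.06 ± 0.27 stood at the 2-fold limit, and in the GC-corrected paired fit it was 0.95 and not called. H2-Eb2 rose from 369, 275 and 90.3 CPM to 1034, 1048 and 589 CPM (1.86 ± 0.38, adjusted p = 0.00063). H2-Ob, a chain of the peptide-exchange modulator H2-O, rose by 1.69 ± 0.37, the class II protease Ctss by 1.40 ± 0.35, and the lysosomal thiol reductase Ifi30 by 1.23 ± 0.25. H2-DMb2 (1.06) and H2-Oa (1.00) were the other rises. Ctsl, the cathepsin of cortical epithelium, and Rfxap, a subunit of the RFX factor, fell by 1.04 and 1.12. With GC correction and pairs there were 9 rises and 1 fall. In the uncorrected fit the falls numbered 1 without mTEChi replicate 1 or 2, and the count of rises dropped to 4 without mTEChi replicate 1, mTEChi replicate 2 or mTEClo replicate 3.

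The class II genes share a promoter design in which a Y box, the CCAAT sequence read on either strand and bound by NF-Y, lies close to the start. Windows of 30 bases are shown for the 5 class II chains that rose, taken from RefSeq promoters of GRCm38.p6 and written 5′ to 3′ on the strand of the gene, with the box in capitals.
H2-Aa: gagaattttctgATTGGttctggcgagttt
H2-Eb2: tcttggctgctgATTGGttcttcagcactg
H2-DMb2: agtcacttagtgATTGGactgacttaacta
H2-Oa: agaactgctctgATTGGctgcttaccgcaa
H2-Ob: tcttcgctcttgATTGGttaacagtgtgaa
They lie on chromosome 17, at chr17:34287854-34287883 (minus strand) for H2-Aa and, on the plus strand, at chr17:34325563-34325592 for H2-Eb2, chr17:34145147-34145176 for H2-DMb2, chr17:34092324-34092353 for H2-Oa and chr17:34238836-34238865 for H2-Ob. The box began 48, 100, 90, 43 and 57 bases before the start, in the order shown. ATTGG or its reverse CCAAT was found within 250 bases before the start in 33.8% of 32851 promoters, so the match alone is common. Among the listed class II genes, 13 matched an entry and 10 of these held the box.

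None of 15 genes of MHC class I presentation was called by edgeR, although their median was 0.60. H2-K1 was measured at 567, 402 and 418 CPM in mTEClo and at 871, 803 and 518 CPM in mTEChi (0.66 ± 0.25), and Calr, the chaperone calreticulin, at 393, 262 and 266 CPM against 717, 582 and 442 CPM (0.92 ± 0.22, adjusted p = 0.0022). A count of 4 class I genes was called higher without mTEClo replicate 1. Calr passed the 2-fold limit in the GC-corrected paired fit (1.01), which called 2 of the 15 genes higher.

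Costimulatory genes and the genes of mature mTECs were higher in mTEChi. Of 26 costimulation and NF-kB genes 9 rose and 1 fell (median 0.82), and of 17 mature mTEC genes tested 10 rose and 1 fell (median 1.28). Cd80, a ligand of CD28, was measured at 99.0, 77.3 and 23 CPM in mTEClo and at 360, 347 and 165 CPM in mTEChi, a log2 change of 2.13 ± 0.37 (adjusted p = 0.00012). Cd86, the other ligand of CD28, had 8.77, 16.7 and 1.61 CPM against 77.2, 93.5 and 31.2 CPM (2.84 ± 0.52). In both genes replicate 3 was the lowest library of its fraction. The fractions did not overlap, with mTEChi higher, which held for 4630 of the 20196 genes tested. Ccl22, a chemokine for regulatory T cells, rose by 2.48 ± 0.76, Cd83 by 2.03 ± 0.48, and Tnfrsf11b, the decoy receptor osteoprotegerin, by 1.96 ± 0.37. The signal adaptor Traf6 went from 150, 135 and 115 CPM to 417, 441 and 322 CPM (1.56 ± 0.17, adjusted p = 1e-06). Ltbr, the lymphotoxin receptor, fell by 1.21. Fezf2, a second regulator of tissue antigens, was at 234, 188 and 124 CPM against 323, 309 and 227 CPM, which missed the test (0.65 ± 0.34, adjusted p = 0.13). After GC correction in the paired fit there were 12 rises and 0 falls of the costimulation list and 12 rises and 1 fall of the mature list. Without mTEClo replicate 3 the costimulation list had 5 rises, and Ccl22 was not called without that library or mTEChi replicate 1.

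The summed level of the mature mTEC list was 2084, 1703 and 971 CPM in mTEClo and 4578, 4412 and 2824 CPM in mTEChi. Replicate 3 was the lowest in each fraction, and the ratio within pairs was 2.20, 2.59 and 2.91. Of 14 genes of epithelial and TEC identity, 13 were not called and Krt19, a simple-epithelium keratin, fell by 1.53 ± 0.37. Foxn1, the master factor of thymic epithelium, was measured at 243, 186 and 156 CPM in mTEClo and at 302, 252 and 195 CPM in mTEChi (0.36 ± 0.21), and Epcam at 201, 178 and 194 CPM against 181, 187 and 198 CPM. The libraries thus carried the epithelial and thymic markers of their label in both fractions.

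Genes of immature mTECs and of the matrix ran the other way. Of 19 immature mTEC genes 7 fell and 0 rose (median -0.75). Gas1, a membrane protein of growth arrest, was measured at 112, 158 and 165 CPM in mTEClo and at 7.60, 18.4 and 39.2 CPM in mTEChi (-2.65 ± 0.36, adjusted p = 1.1e-05). Fst, the activin antagonist follistatin, fell by 2.23, the apolipoprotein Apoe by 2.02 and Pdpn, podoplanin, by 1.72. Ccl21a, the chemokine of immature mTECs that attracts thymocytes to the medulla, stood at 21, 16.7 and 17.7 CPM against 19.3, 18.9 and 16.6 CPM (-0.02 ± 0.19). It shares sequence with its Ccl21 copies, so its level is uncertain.

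Of 32 basement membrane and extracellular matrix genes 17 fell and 1, the integrin Itgb6, rose (median -1.06). Col7a1, the collagen of anchoring fibrils, had 320, 288 and 377 CPM in mTEClo against 28.1, 18.9 and 60.2 CPM in mTEChi (-3.14 ± 0.33, adjusted p = 9.3e-07). Lamb3, a laminin chain of the epidermal basement membrane, fell by 2.7 ± 0.34 and Sparc, a collagen-binding matrix protein, by 2.60 ± 0.27. Lama5, another laminin chain, went from 907, 922 and 1080 CPM to 277, 234 and 284 CPM (-1.87 ± 0.17). In the GC-corrected paired fit 11 of the 32 fell and 1 rose, and 7 of the 19 immature genes fell.

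Markers of mesenchyme moved with the matrix genes. Of 14 tested, 8 fell and 2 rose (median -1.84), the same counts as in the GC-corrected paired fit, and their summed level ran from 1936 to 2703 CPM in mTEClo and from 1121 to 1240 CPM in mTEChi. Prrx1, a mesenchymal homeobox factor, had 111, 101 and 134 CPM against 4.68, 12 and 35.0 CPM (-2.61 ± 0.37), and Col6a2 fell by 3.15 ± 0.36. Dcn, the fibroblast proteoglycan decorin, was not lower in mTEChi, at 193, 152 and 189 CPM in mTEClo against 349, 255 and 187 CPM (0.56 ± 0.20), and Pdgfrb and Thy1, also on this list, rose by 1.04 and 1.63. The part of mesenchymal cells in the matrix result was not tested, and in bulk samples fewer cells of a type and less RNA per cell cannot be told apart.

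Of 23 Notch pathway genes tested, 10 fell and 1 rose (median -0.72). With GC correction and pairs there were 6 falls and 3 rises, and in the uncorrected fit 6 genes fell without mTEChi replicate 2 or mTEClo replicate 2. Among ligands, Jag2 was measured at 349, 326 and 398 CPM in mTEClo and at 48.5, 46.5 and 108 CPM in mTEChi (-2.37 ± 0.33, adjusted p = 1.3e-05). Among receptors, Notch3 had 122, 246 and 173 CPM against 31.0, 35.0 and 36.6 CPM (-2.39 ± 0.27), and Notch1 had 723, 736 and 680 CPM against 334, 333 and 382 CPM (-1.03 ± 0.15). The target Hes1, a repressor, had 86.2, 80.1 and 70.1 CPM against 14.0, 13.2 and 27.1 CPM (-2.06 ± 0.35), and the feedback inhibitor Nrarp fell by 1.57. Rbpj, the DNA-binding factor of the pathway, was the rise, from 123, 117 and 86.4 CPM to 268, 295 and 228 CPM (1.28 ± 0.15, adjusted p = 2.7e-06). The other 12 genes were not called, among them the receptor Notch2 and the ligand Dll4, and Nrarp was not called in the GC-corrected paired fit (-1.22) or without mTEChi replicate 1 or 2 or mTEClo replicate 1 or 2.

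Of 25 Hox genes tested 9 fell and 2 rose (median -0.92), and 14 further Hox genes were too low to test. Their levels were low throughout. Hoxb3 had 3.13, 3.06 and 6.43 CPM in mTEClo and 0.585, 0 and 0 CPM in mTEChi (-4.45 ± 0.82, adjusted p = 0.00021). Hoxc13 had 32 counts over the mTEClo libraries and 0 over the mTEChi libraries and was at least 6.00-fold lower in mTEChi, taking 3 counts over the group as the floor of a count of 0. Hoxa7 fell by 3.18 ± 0.75 and Hoxa4, which overlaps Hoxa3, by 3.12 ± 1.00, while Hoxa9 (1.45) and Hoxc10 (1.51) rose. Hoxa4 was not called without mTEChi replicate 1 or 2, or without mTEClo replicate 3 (-2.07). The summed level overlapped between fractions, at 139, 139 and 129 CPM in mTEClo and 152, 134 and 79.0 CPM in mTEChi. In Ctrl 15 of the 25 rose and 3 fell, with a median of 1.68. The difference from Ctrl was called lower for 7 genes and higher for 0 (median -1.60). In EEDcKO 5 rose and 5 fell (median 0.08). The summed Hox level in mTEClo was 64.2 to 71.0 CPM in Ctrl and 147 to 179 CPM in EEDcKO. In mTEChi this level was 90.8 to 130 CPM in Ctrl, which overlapped AireEEDdKO, and 145 to 154 CPM in EEDcKO. With GC correction and pairs AireEEDdKO had 8 falls and 3 rises. In the uncorrected fit 0 Hox genes rose without mTEChi replicate 1, mTEChi replicate 2 or mTEClo replicate 2.

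Of 12 PRC2 subunits, 1 fell, the accessory subunit Phf1 (-1.28 ± 0.30), which was not called after GC correction and overlaps Cuta. Ezh2, the methyltransferase, was measured at 32.0, 44.0 and 43.2 CPM in mTEClo and at 38.6, 41.3 and 48.4 CPM in mTEChi (0.11 ± 0.17), and Suz12 changed by 0.17 ± 0.15.

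Genes of mimetic cells split by cell type. Of 21 tuft genes tested 13 fell and 1 rose (median -1.80), and the GC-corrected paired fit had 9 falls and 1 rise. Pou2f3, the master factor of tuft cells, was measured at 37.3, 36.7 and 24.6 CPM in mTEClo and at 7.60, 6.31 and 9.87 CPM in mTEChi (-2.0 ± 0.36, adjusted p = 0.00017). The taste transduction genes followed it. Plcb2 had 146, 74.8 and 24.4 CPM against 8.19, 13.8 and 7.01 CPM (-3.11 ± 0.83), and Gnat3, the alpha subunit gustducin, had 24.1, 17.7 and 0.230 CPM against 1.75, 1.72 and 0 CPM (-3.81 ± 1.32), so its fractions overlapped through mTEClo replicate 3, and it was not called without any 1 of the mTEChi libraries or without mTEClo replicate 1 or 2. Chat, which makes acetylcholine, fell by 3.73 and Sh2d6 by 2.98. Gfi1b was the rise (1.16). The summed tuft level was 1004, 736 and 493 CPM in mTEClo and 467, 378 and 375 CPM in mTEChi, with replicate 3 of mTEClo the nearest to mTEChi.

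Enterocyte genes rose, 10 of 25 with 0 falls, also 10 in the GC-corrected paired fit. The median was 0.96, or 1.09 without 2 genes that had at most 3 counts, all in 1 fraction. Besides Sis, the intestinal cadherin Cdh17 went from 30.4, 32.4 and 11.5 CPM to 210, 222 and 151 CPM (2.97 ± 0.40, adjusted p = 9.3e-06). Lypd8, Saa1 and Saa3 rose by 4.75, 5.15 and 3.88 from levels below 1 CPM. In Ctrl 20 of the 25 rose and in EEDcKO 14, and the difference from Ctrl was called lower for 2 and that from EEDcKO for 0.

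Other mimetic lists had few calls or calls in both directions. Of 22 ciliated genes 2 rose and 3 fell, Dnah5 (1.48) and Spag6l (2.53) among the rises and Cfap44 (-2.48) among the falls beside Trp73. The GC-corrected paired fit had 2 of each, and Dnah5 was not called without mTEChi replicate 1, mTEChi replicate 2 or mTEClo replicate 3 (0.93). Of 15 microfold genes 3 rose and 1 fell, with Ccl20 (1.87) and Aif1 (1.75) higher and Tnfaip2 (-1.32) lower, while the GC-corrected paired fit had 5 rises and 0 falls, with Tnfaip2 at -0.87. Ccl20 was not called without mTEChi replicate 2, mTEClo replicate 1 or mTEClo replicate 3. Of 20 endocrine genes 2 rose and 1 fell (median -0.53, or -0.42 without 2 genes that had at most 3 counts, all in 1 fraction). Tph1, the enzyme of serotonin synthesis, went from 42.6, 24.1 and 5.74 CPM to 149, 164 and 62.7 CPM (2.39 ± 0.48) and the neuroendocrine factor Insm1 rose by 1.46, while the hormone gene Cck fell by 2.59. With GC correction and pairs there were 3 rises and 1 fall, with the replicate block alone 4 rises, and Insm1 was not called without mTEClo replicate 3 (1.06). Of 25 muscle genes 2 rose and 3 fell. Ttn, the giant sarcomere protein, had 2329, 1742 and 1658 CPM in mTEClo and 7084, 7129 and 3776 CPM in mTEChi (1.65 ± 0.35), while Ryr1 (-1.94) and Tnnt1 (-2.07) fell. Acta1 (-1.58) was also called lower, but not in the GC-corrected paired fit (-1.11), by DESeq2, or without mTEClo replicate 1 (-1.01), mTEClo replicate 3, mTEChi replicate 2 or mTEChi replicate 3. After GC correction in the paired fit there were 2 rises and 2 falls. The summed muscle level, most of it Ttn, was higher in mTEChi in every pair although the list's median was -0.11.

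Of 25 keratinocyte genes 2 rose and 5 fell, with Tgm3 (2.30) higher and Krtdap (-2.88) lower, and the GC-corrected paired fit had 4 rises and 3 falls. Lor (-3.32) was not called in that fit (-2.10) or without mTEClo replicate 1 (-1.82), mTEChi replicate 1 or mTEChi replicate 3. Sprr1b fell by 3.80 on account of 1 library, mTEClo replicate 2, at 13.5 CPM against at most 0.585 CPM in the others. Of 16 ionocyte genes 3 rose and 5 fell, and the falls included the transcription factors Foxi1 (-2.39), Foxi2 (-3.28) and Ascl3 (-2.72) and the proton pump subunit Atp6v1b1 (-1.57). After GC correction in the paired fit 1 of these falls was called. Of 21 goblet and airway secretory genes 1, Muc13 (1.57), rose and 4 fell, while the GC-corrected paired fit had 1 rise and 2 falls. Muc6 (-1.26) was not called without mTEChi replicate 2 or mTEClo replicate 3. Spdef (-1.61) was not called in the GC-corrected paired fit (-0.84), without mTEClo replicate 2 (-0.81) or without mTEChi replicate 1 or 3. Muc13 was not called without mTEChi replicate 3, mTEClo replicate 1 or mTEClo replicate 3. Muc5b (-2.62) rested on mTEClo replicate 2, at 161 CPM against 12.8 and 19.1 CPM in the other two, and its change was -0.60 without that library. The keratinocyte falls numbered 2 without mTEChi replicate 1 and 3 without mTEChi replicate 3. The ionocyte falls numbered between 0 and 3 without any 1 library, and the goblet falls 1 or 2 without mTEChi replicate 1, mTEChi replicate 2 or mTEClo replicate 2.

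**Figure D3:**
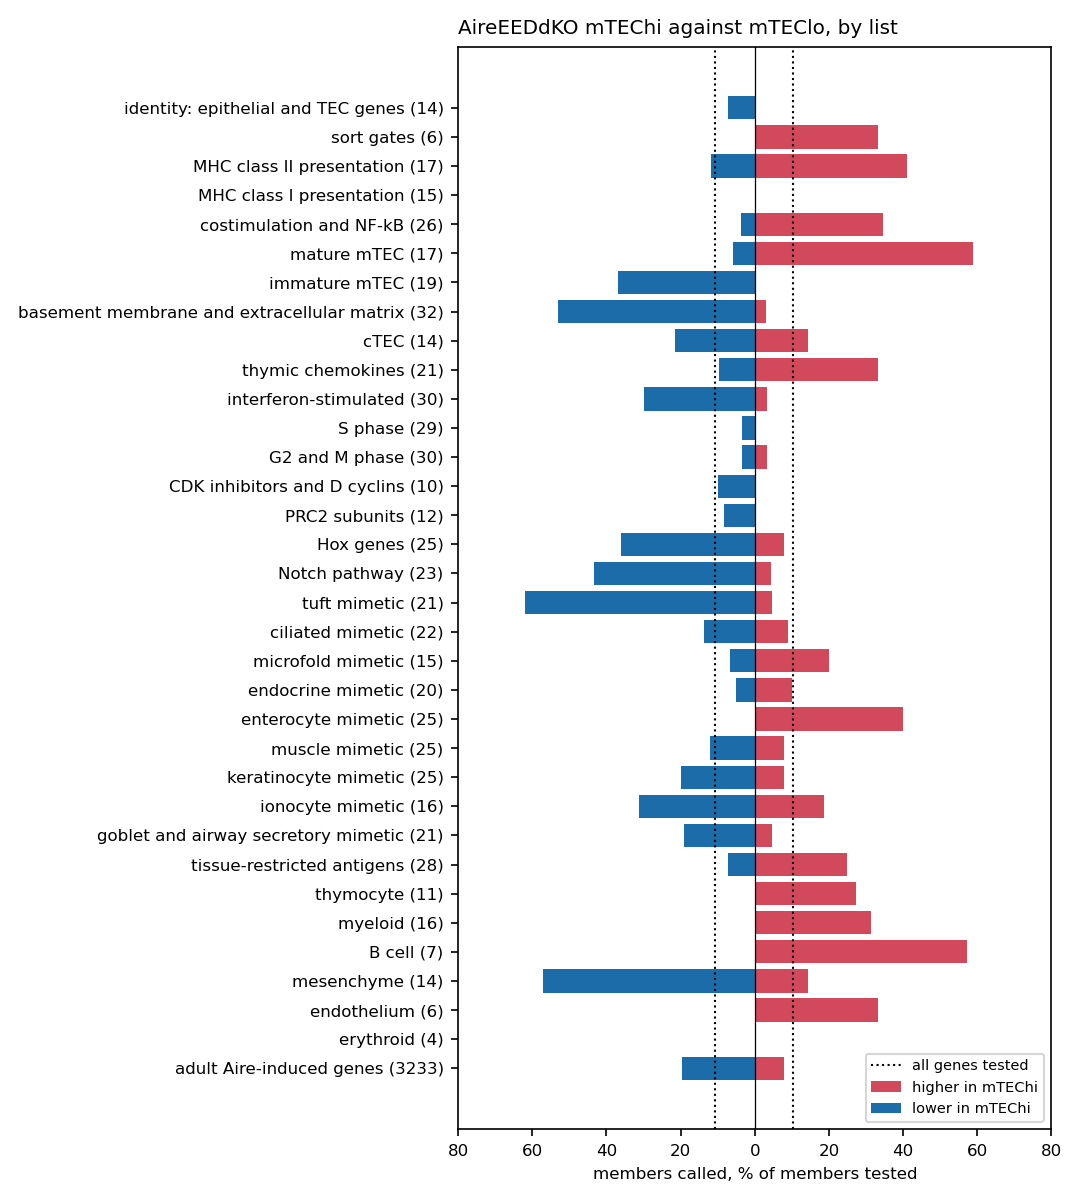
Share of tested members of each list (number tested in parentheses) that were called higher (red, to the right) or lower (blue, to the left) in AireEEDdKO mTEChi than in mTEClo, in percent, with dotted lines at the 10.4% and 10.6% of all genes tested. Mature mTEC genes extend to the right, and tuft, mesenchyme and matrix genes to the left.

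Adult Aire-induced genes, named by the study's definition, were a list of 3428 genes called lower in adult mTEChi of AireKO than of WT mice in the 23 adult libraries. The paper cautions that genes defined in this way from bulk cells need not be direct targets of Aire, because its absence would also change mTEC composition. Of 3233 tested here, 258 (7.98%) rose and 638 (19.7%) fell between the fractions without Aire and EED, against 10.9% and 8.81% of the other genes tested, and the median log2 change was -0.25. The GC-corrected paired fit gave 254 rises and 605 falls. In Ctrl, 1088 (33.7%) rose and 292 (9.03%) fell (median 0.91), and in EEDcKO 1018 (31.5%) rose and 381 (11.8%) fell (median 0.45). The summed level of the list was 60349, 60168 and 68333 CPM in mTEClo and 50070, 45642 and 47143 CPM in mTEChi, so that every mTEChi library lay below every mTEClo library.

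Of 28 tissue-restricted antigens tested, 7 rose and 2 fell (median 0.29), while 18 rose and 1 fell in Ctrl (median 1.72). With 2 genes at 0 in a fraction set to a bound or, at 3 counts or fewer, left out, the AireEEDdKO median was 0.27. Csn2, a milk casein, went from 142, 114 and 29.9 CPM to 470, 511 and 242 CPM (2.10 ± 0.47, adjusted p = 0.0014), Crp, an acute-phase protein, from 2.19, 6.52 and 2.99 CPM to 19.9, 43.6 and 20.1 CPM (2.76 ± 0.53), and Tg, thyroglobulin, rose by 1.62. Csn3 rose by 3.88 at levels up to 5.74 CPM. With GC correction and pairs there were 7 rises and 2 falls. Tg was not called without mTEChi replicate 1 or 2 or mTEClo replicate 3. The insulin gene Ins2 had 0 counts in all 6 libraries. A count of 4 antigens rose without mTEChi replicate 1 or 2 and 3 without mTEClo replicate 3.

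Of 21 thymic chemokines tested 7 rose and 2 fell (median 0.62). Cxcl11, an interferon-inducible ligand of CXCR3, rose by 2.42 ± 0.44, and Cxcl14 and Cxcl12 fell by 3.07 and 2.55. Cxcl10, a ligand of the same receptor, had 182, 119 and 90.3 CPM against 450, 336 and 204 CPM (1.34 ± 0.31). Of 14 cTEC genes 2 rose and 3 fell (median 0.05). The decoy receptor Ackr4, which overlaps Acad11, fell by 2.27 and the tendon factor Scx by 2.69, whereas the T cell attractant Ccl25 rose from 108, 71.1 and 29.2 CPM to 218, 275 and 108 CPM (1.53 ± 0.38). Of 30 interferon-stimulated genes 9 fell and 1, Oasl1, rose (median -0.84). Xaf1 had 26.9, 27.9 and 48.5 CPM against 4.68, 5.16 and 14.3 CPM (-1.96 ± 0.40), Rtp4 fell by 1.94, Ifit3 by 2.27 and Isg15 by 1.56, with replicate 3 the highest in both fractions. The falls numbered 5 without mTEChi replicate 2 and 4 without mTEClo replicate 3, and neither Ifit3 nor Isg15 was called without either of these or mTEChi replicate 1. The GC-corrected paired fit gave the same counts for the chemokine and interferon lists, and 4 rises and 3 falls of the cTEC list.

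Cell division genes were mostly not called. Of 29 S phase genes 1 fell (Cdt1, -1.63), of 30 G2 and M phase genes 1 rose (Nusap1, 1.21) and 1 fell (Cenpa, -1.04), and of 10 CDK inhibitors and D cyclins 1 fell (Ccnd3, -1.22, which was -0.82 after GC correction). Mki67, the proliferation marker, was measured at 135, 166 and 144 CPM in mTEClo and at 98.8, 92.4 and 239 CPM in mTEChi. Replicate 3 of mTEChi stood apart in these genes, with a summed G2 and M phase level of 1119 CPM against 661 and 515 CPM in the other mTEChi libraries and 646 to 776 CPM in mTEClo. Without it 11 S phase genes and 4 G2 and M phase genes fell and 0 rose, and without mTEClo replicate 1 the S phase falls numbered 5. The G2 and M phase rises numbered 3 without mTEChi replicate 1, mTEChi replicate 2 or mTEClo replicate 1, and 0 without mTEClo replicate 3. The falls of that list numbered 0 without mTEChi replicate 2, mTEClo replicate 1 or mTEClo replicate 2. The replicate block alone gave 4 S phase falls and 2 G2 and M phase falls, and the GC-corrected paired fit 1 fall in each list and 0 rises.

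Markers of myeloid cells, B cells and thymocytes moved towards mTEChi. Of 16 myeloid markers 5 rose and 0 fell, with summed levels of 159 to 448 CPM in mTEClo and 625 to 899 CPM in mTEChi. Of 7 B cell markers 4 rose (92.6 to 216 CPM against 348 to 509 CPM), and of 11 thymocyte markers tested 3 rose (32.0 to 72.1 CPM against 101 to 106 CPM). Lyz2, a lysozyme, had 164, 112 and 27.6 CPM against 345, 340 and 203 CPM (1.55 ± 0.51), and Fcer1g rose by 1.89 and Cx3cr1 by 1.98. Pax5, the B lineage factor, had 61.7, 50.8 and 8.27 CPM against 185, 126 and 115 CPM (1.82 ± 0.43), and Blnk rose by 1.21 and Cd79b by 1.26. Rag1 went from 4.39, 2.85 and 1.15 CPM to 25.1, 17.8 and 15.9 CPM (2.83 ± 0.49), and Cd4 rose by 1.27. Lyz2 and Cx3cr1 were not called without mTEChi replicate 1 or 2 or mTEClo replicate 3, Blnk not without mTEClo replicate 3 (0.97), and Cd4 not without mTEChi replicate 1 or 3 or mTEClo replicate 2 or 3.

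Ptprc, which encodes CD45, the marker that the sort excluded, was at 8.77, 0.204 and 5.05 CPM in mTEClo and at 14.0, 16.1 and 17.5 CPM in mTEChi (1.85 ± 0.72, adjusted p = 0.044), and it was not called after GC correction. Of 6 genes of the sort gates 2 rose, Ptprc and H2-Aa. That count was 0 without mTEChi replicate 1, mTEChi replicate 2 or mTEClo replicate 3, 1 without mTEClo replicate 2 and 3 without mTEChi replicate 3. Of 6 endothelial markers tested 2 rose, Pecam1 (1.45) and Cdh5, with 6 counts over mTEChi and 0 over mTEClo, and their summed level was 28.3 to 36.3 CPM against 42.4 to 47.9 CPM. Cdh5 was not called without any 1 of the 6 libraries, or with the replicate block, which left 1 rise. None of 4 erythroid markers tested was called, and their sum, mostly Alas2, lay between 8.04 and 23 CPM. None of 6 sex-linked genes was called. The part of these cells in the rises of immune receptors and mature genes was not tested. The myeloid rises numbered 2 without mTEChi replicate 1, mTEChi replicate 2 or mTEClo replicate 3, the B cell rises 2 without mTEClo replicate 3, and the thymocyte rises between 1 and 5. The GC-corrected paired fit had 5 myeloid, 5 B cell and 2 thymocyte rises.

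**Figure D4:**
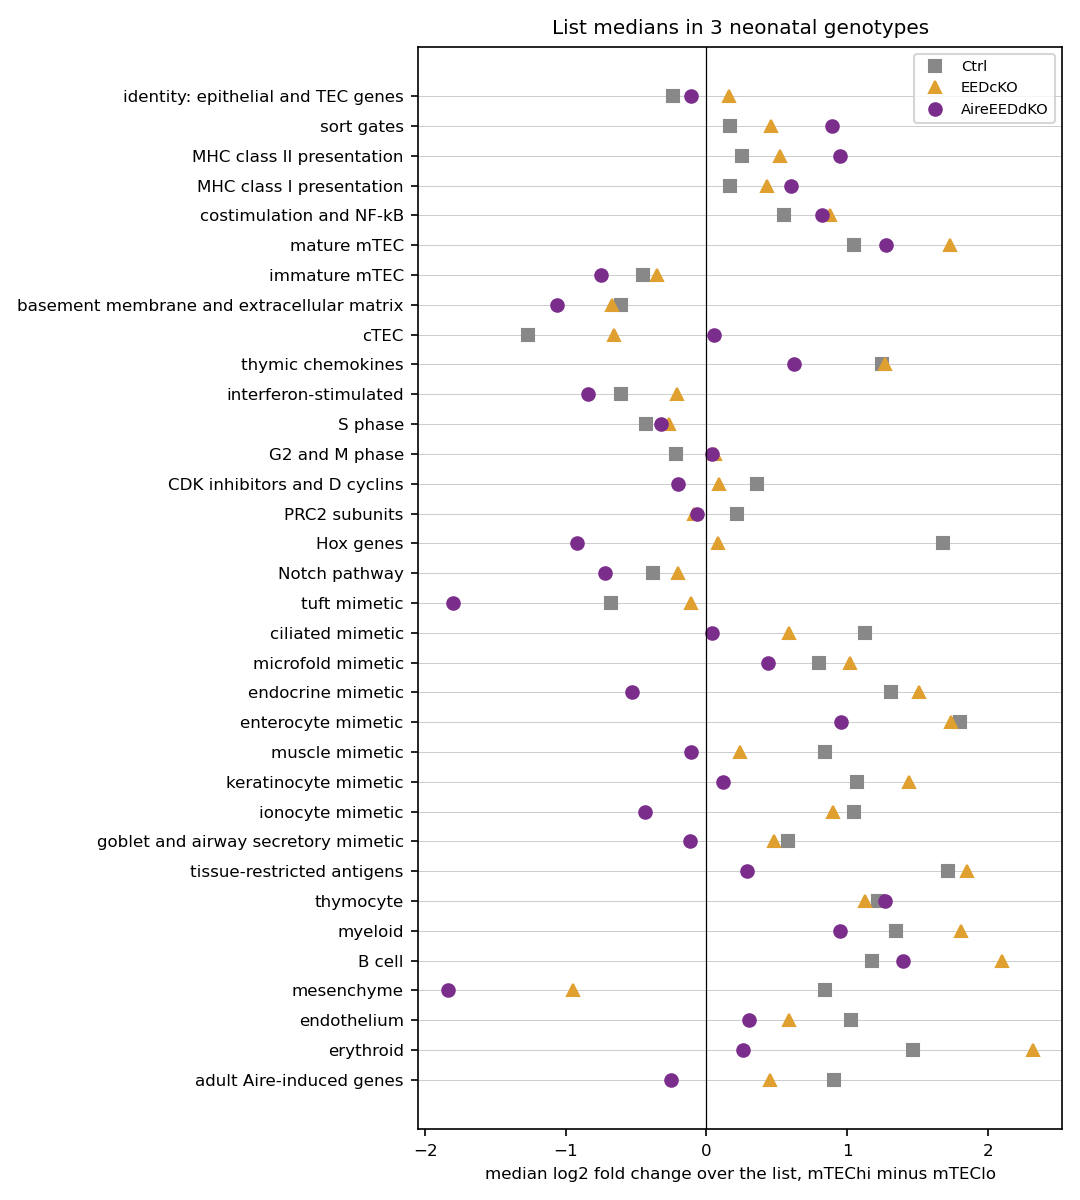
Median log2 fold change of mTEChi against mTEClo over each list (horizontal axis) in Ctrl (squares), EEDcKO (triangles) and AireEEDdKO (circles). The AireEEDdKO medians of Hox (-0.92), tuft (-1.80), endocrine (-0.53) and ionocyte (-0.44) genes and of mesenchyme (-1.84) lie to the left of both other genotypes, as do those of several other lists, and those of the mature mTEC list are positive in all 3 genotypes.

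The maturation change was then compared between genotypes by a test of the difference itself. Against Ctrl, the change without Aire and EED was called higher for 408 genes (2.02% of genes tested) and lower for 898 (4.45%). Scaling by library size alone gave 226 higher and 1107 lower, and the higher count was 219 without mTEClo Ctrl replicate 3 and 265 without mTEClo AireEEDdKO replicate 3. Of the adult Aire-induced genes 423 (13.1%) were among those lower and 34 (1.05%) among those higher, against 2.80% and 2.20% of the other genes. The Aire-induced counts were 372 lower and 27 higher in the GC-corrected paired fit. Of the class II genes 0 of 17, of the class I genes 0 of 15 and of the mature mTEC genes 1 of 17 (higher) were called, with median differences of 0.62, 0.49 and 0.32, and counts this small lie near the share over all genes. The cTEC list was higher for 5 genes and lower for 1 of 14, with a median difference of 1.50. Its median change was -1.27 in Ctrl and 0.05 here. The summed cTEC level was 2909 to 4445 CPM in Ctrl mTEClo against 833 to 1170 CPM in AireEEDdKO mTEClo. EEDcKO mTEClo, at 738 to 1737 CPM, overlapped AireEEDdKO mTEClo. The Ctrl mTEClo mice were younger, at most 3 days old against 4 or 6 days in AireEEDdKO. In mTEChi the summed cTEC level was 1014 to 1519 CPM in Ctrl and 985 to 1475 CPM in AireEEDdKO. Against EEDcKO 1 cTEC gene was called higher and 0 lower, and 0 were called in the GC-corrected paired fit. Cd83, on 3 of the lists, changed by -0.87 in Ctrl against 2.03 here. The immature list was lower for 5 of 19 and the matrix list for 7 of 32, each with 1 gene higher. The ciliated list was lower for 6 of 22, the keratinocyte list for 5 of 25 and mesenchyme for 4 of 14, with 0 higher. After GC correction in the paired fit the immature list had 5 lower and 2 higher, the matrix list 6 and 3, and the cTEC list 0 and 7. The median difference of the matrix list moved from -0.20 to 0.13. Lower genes then numbered 5 on the ciliated list, 3 on the keratinocyte list and 5 for mesenchyme, with 0 higher.

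Among the genes of smallest p against Ctrl, Trp73 was the first. Its Ctrl libraries lay between 10.1 and 14.4 CPM in mTEClo and between 12.8 and 16.7 CPM in mTEChi, and the EEDcKO libraries between 37.4 and 48.4 CPM and between 10.4 and 19.1 CPM. The AireEEDdKO mTEClo libraries, at 32.0 to 47.3 CPM, lay above those of Ctrl and overlapped those of EEDcKO, while the mTEChi libraries, at 1.17 to 2.87 CPM, lay below both other genotypes. Prdm16 (-1.89 here, 0.89 in Ctrl), Ptpru (-1.62 and 1.00) and Col6a3 (-3.52 and 2.08) changed in opposite directions in the 2 genotypes, and Tanc1 fell by 1.18 here against -0.02 in Ctrl. Pds5b, a cohesin regulator, had 107, 92.3 and 90.7 CPM in mTEClo and 239, 269 and 160 CPM in mTEChi, a change of 1.20 against -1.19 in Ctrl. Camk4 (0.63 and -1.22), Dlg2 (0.83 and -0.64), Creb3l2 (0.36 and -1.21) and Etnk1 (0.28 and -1.03) had the same signs. The adjusted p of these differences by edgeR ran from 4.9e-07 to 0.00017. They and the changes of these genes came from the fit without GC correction.

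**Figure D5:**
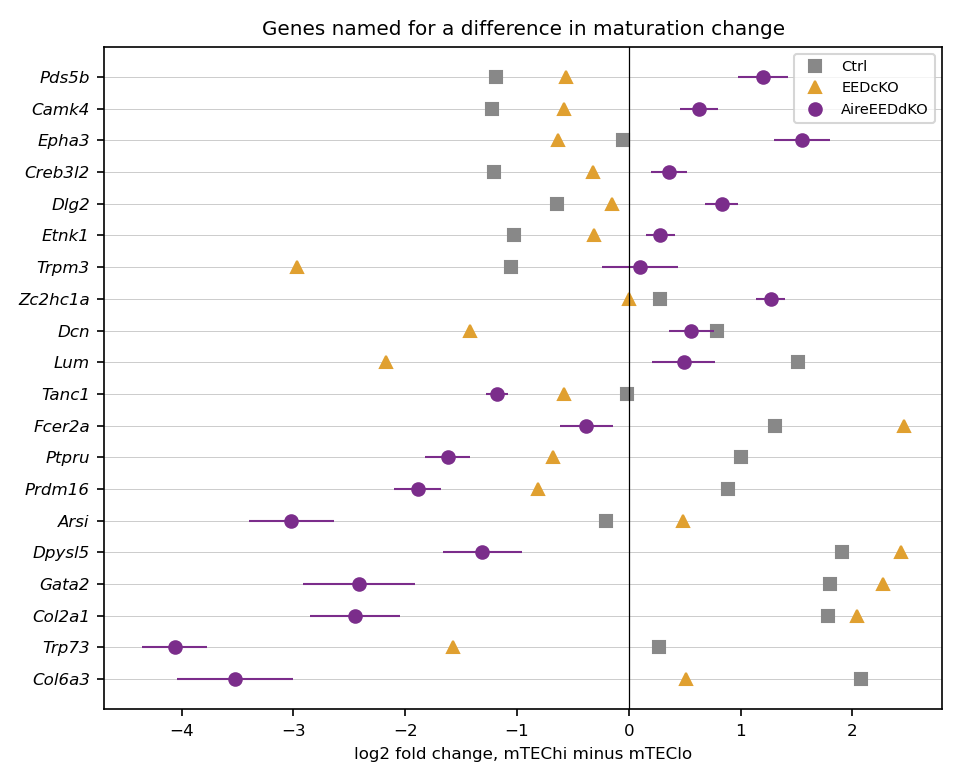
Log2 fold change of mTEChi against mTEClo (horizontal axis) in Ctrl (squares), EEDcKO (triangles) and AireEEDdKO (circles, with bars for the SE) for the 20 genes named for the smallest p of a difference between genotypes. Trp73 and Col6a3 lie furthest left in AireEEDdKO, at -4.06 and -3.52, and Epha3 furthest right, at 1.55.

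Against EEDcKO, which as labelled differs in Aire, 245 genes had a higher (1.21%) and 518 a lower (2.56%) maturation change, and 144 and 707 with scaling by library size alone. Both comparisons between genotypes share the AireEEDdKO libraries. Of the adult Aire-induced genes 286 (8.85%) were lower and 33 (1.02%) higher, against 1.37% and 1.25% of the other genes. In the GC-corrected paired fit 159 of them were lower and 7 higher. The matrix list was lower for 6 of 32 genes and the ciliated list for 4 of 22. The tuft list was lower for 4 of 21 genes and the keratinocyte and Hox lists for 4 of 25 each. Mesenchyme was lower for 3 and higher for 2 of 14. The GC-corrected paired fit called 3 matrix, 1 ciliated, 3 tuft, 4 keratinocyte and 0 Hox genes lower. For mesenchyme it called 2 lower and 2 higher. Gata2, a haematopoietic and secretory-lineage factor, had 12.2, 6.93 and 9.19 CPM in mTEClo and 1.75, 3.44 and 0.637 CPM in mTEChi, a change of -2.41 against 2.27 in EEDcKO. Col2a1, the cartilage collagen, changed by -2.45 against 2.04, Dpysl5 by -1.31 against 2.43, Arsi by -3.02 against 0.48 and Fcer2a, the low-affinity IgE receptor, by -0.38 against 2.46. In the other direction Epha3 changed by 1.55 against -0.63, Dcn by 0.56 against -1.42, Lum by 0.49 against -2.17, Trpm3 by 0.10 against -2.97 and Zc2hc1a by 1.27 against 0.00. These values came from the fit without GC correction as well. The count of this comparison moved with its libraries and with GC content, and the GC-corrected paired fit called 82 genes higher and 252 lower. It ranged from 352 to 1315 genes in all when 1 library was left out, and the same fit called 339 genes higher and 678 lower against Ctrl.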

How the data were processed

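RNA-seq counts of 47 libraries were deposited as gene tables, of which the 24 neonatal libraries were fitted and the 23 adult ones gave the adult Aire-induced list. The values are raw counts per gene that the authors made from RamDA-type total RNA libraries, per the study's methods and the submitters' processing notes with fastp 0.20.0, STAR 2.7.3a (mm10), SAMtools 1.9 (mapping quality of at least 5), Picard 2.21.1 for duplicates and HTSeq 0.11.2 without strand. Duplicates were removed without molecular identifiers, which can lower the counts of abundant genes, and counting without strand leaves overlapping genes uncertain: of 139 genes named by the rule, 59 overlap an annotated gene and 20 a protein-coding gene. The authors' normalized tables were not used.

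The tests used edgeR 4.0.16 under R 4.3.3: filterByExpr, TMM, a quasi-likelihood fit over all 24 libraries, contrasts of group means, and Benjamini-Hochberg adjustment over 20196 genes, with calls at an adjusted p under 0.05 and at least 2-fold. CPM use TMM-scaled library sizes, fold changes a prior count of 0.125, and the biological coefficient of variation was 19.8%. The floor of a count of 0 was 3 counts, a 95% limit that covers counting error only. Scripts were tested on simulated data. Coordinates and symbols came from GENCODE M21 on GRCm38 (the assembly called mm10) and matched 55144 of 55471 identifiers. Transcript GC was known for 99.9% of genes tested, and its trend was removed per library in the GC-corrected paired fit, an alternative chosen after seeing the data.

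Replicate numbers of the labels were taken as pairs in the paired fits, the pair ratios and the figure of levels. The reason was that deviations from the group means correlated at 0.291, 0.292 and 0.416 within numbers and at 0.015 or less between them, with equal ages within numbers. The sexes of replicate 1 differed between the fractions. The main fit held no pairs, so its SE, adjusted p and counts leave them out. Replicate libraries differed beyond sampling noise (chi-square per degree of freedom between 2.85 and 9.99), so none was merged.

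Named were Aire, Eed, Ezh2, Suz12, Foxn1, Epcam, H2-Aa and Cd80. To these the rule added the 10 largest rises and falls among called protein-coding genes without overlap of the fractions, at least 10 CPM in the higher fraction and over 3 counts on average in the lower. Up to 4 called members of each of 34 lists (or the 2 most abundant where none was called) and, for each difference between genotypes, the 5 smallest p-values in each direction completed it. The lists, the rule and the comparison were chosen with earlier results of these data known. H2-DMb2, H2-Oa, Ctsl, Rfxap, Traf6, Ltbr, Fezf2, Ccl21a, Itgb6, Lama5, Pdgfrb, Thy1, Notch1, Notch2, Dll4, Rbpj, Hoxa9, Hoxc10, Pou2f3, Gfi1b, Cdh17, Ins2, Cxcl10, Ccl25, Oasl1 and Mki67 were chosen after their values were seen. Alternatives were RLE factors, library size alone, other filters, the replicate block, age as a term, DESeq2 1.42.0, no minimum change, the 6 libraries or the compared groups alone, male pairs only, a prior count of 2, GC correction, mTEClo EEDcKO replicates 3 and 4 only, and each library left out.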

Additional observations from a re-analysis of the deposited data

Results flagged for a closer look

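The maturation change differed from that in Ctrl for 1306 genes and from that in EEDcKO for 763 genes, by edgeR's test of the difference. These counts and the values below came from the fit without GC correction. Against Ctrl the genes of smallest p had log2 differences of -4.33 (Trp73), -2.78 (Prdm16), -2.62 (Ptpru), -5.60 (Col6a3) and -1.16 (Tanc1) and, with a higher change, of 1.85 (Camk4), 2.39 (Pds5b), 1.32 (Etnk1), 1.57 (Creb3l2) and 1.47 (Dlg2). Against EEDcKO they were -2.83 (Fcer2a), -4.49 (Col2a1), -4.68 (Gata2), -3.74 (Dpysl5) and -3.50 (Arsi) and, in the other direction, 1.27 (Zc2hc1a), 1.98 (Dcn), 2.66 (Lum), 3.06 (Trpm3) and 2.18 (Epha3).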

How the results depend on the processing

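The AireEEDdKO comparison called 4236 genes, 7907 without a minimum change, and from 3173 to 4640 with 1 library left out. With the replicate block, which pairs equal numbers, it called 4409, against 4161 by DESeq2, 3431 in the 6 libraries alone, 3810 in male pairs and 3943 with GC correction and the block. Among named genes the block alone ended the calls of Cdh5, Muc5b and Sprr1b, and the block with GC correction ended 17 of 119 and added 2. Sprr1b ranged from -4.38 to 3.00 when 1 library was left out, the positive value (adjusted p = 0.23, edgeR) without mTEClo replicate 2.

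The difference from Ctrl was called for 1306 genes, 1982 without a minimum change, 1363 with the replicate block, 1017 with GC correction and the block, and from 878 to 1287 with 1 library left out. The difference from EEDcKO depended more on these choices: 763 genes, 853 with the replicate block, 1001 by DESeq2, 258 with GC correction, 334 with GC correction and the block, 131 in the compared groups alone, 394 with mTEClo EEDcKO replicates 3 and 4 only, and 1162 without a minimum change. With 1 library left out it ranged from 352 (mTEChi AireEEDdKO replicate 2) to 1315 (mTEClo EEDcKO replicate 3), and was 467 without mTEClo EEDcKO replicate 1, 1213 and 448 without mTEChi EEDcKO replicates 1 and 3, 458 without mTEChi AireEEDdKO replicate 1 and 480 without mTEClo AireEEDdKO replicate 1. The cause was not tested. The smaller totals of the mTEChi libraries limit genes of few counts, such as Hox genes.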
